A study of Phanerodontia chrysosporium with 18 samples.

Results

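Iron reduction and uptake in Phanerochaete chrysosporium, a white-rot fungus (strain RP-78), was followed through 10 gene models out of the 13602 in the deposited table. They were taken by protein number: 8 ferric reductase models, the ferroxidase FET3 (2979932) and the plasma membrane iron permease FTR1 (2951605). Of the 8 reductase models 7 are listed with a ferric reductase domain, and 3026079 is listed with an NAD-binding domain. The fungus grew on thin sections of white spruce (Picea glauca) sapwood, set in agar with nitrogen and mineral salts and no nutrient carbon, and RNA was taken at 96 h and at 40 h after inoculation. Each time had 3 libraries of poly-A selected RNA, each from 20 pooled sections and each sequenced in 3 lanes, whose values were averaged. Strain, wood and medium were shared by both times, so 96 h against 40 h is a comparison of culture age on wood. It addresses gene regulation around the onset of lignin oxidation, the subject of the series title.

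Fungi take up iron in a reductive pathway best known from Saccharomyces cerevisiae. Ferric reductases, heme proteins of the plasma membrane, pass electrons across the membrane and reduce ferric iron, often bound in chelates, to ferrous iron. The multicopper oxidase Fet3 oxidizes the ferrous iron again and hands it to the permease Ftr1, with which it forms a complex in that yeast. NADPH oxidases, which make superoxide, share the membrane domain of the ferric reductases, so the domain alone does not tell these kinds of enzyme apart. In wood-decaying fungi iron is needed for heme peroxidases, and its reduced form reacts with hydrogen peroxide to hydroxyl radical.

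Levels are RPKM, read numbers scaled by the length of the gene model and by the reads of the lane, so they can be compared between models. Summed RPKM was between 779148 and 788009 in the 96 h libraries and between 827199 and 838614 in the 40 h libraries. Depth is unknown, since no read totals came with the values. The lane-to-lane spread serves as the measure of sequencing error alone. The lanes repeat the same library, so error from RNA or library preparation is not in it. Of the 96 h libraries, number 2 was the least like the rest: across models its log2 values correlated at 0.984 and 0.992 with libraries 1 and 3, against 0.995 between libraries 1 and 3. All 10 models passed the filter of at least 1 RPKM in at least 3 libraries. Model 3024947 passed it through its 40 h libraries alone.

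Transcripts of the iron reduction and uptake models were lower at 96 h for 9 of the 10 models by limma's test, called where the adjusted p was below 0.05, and none was called higher. Among all 11725 tested models 35.6% were lower and 26.3% higher by the same rule. The members were chosen with earlier results of these data known. Of 4 models with a related domain or name outside the members, 3 were called higher and 1 lower. On the log2(RPKM + 1) scale 5 members were at least 2-fold lower, against 7.47% of all tested models. For 9 members all 96 h libraries lay below all 40 h libraries, against 39.8% of all tested models. The median log2 fold change of the 10 models was -1.05, and that of all tested models was -0.08. Each of these member counts, and the median, includes 3024947. That model entered the test through its 40 h libraries alone, so the filter favoured a lower call for it. In whole mycelium, fewer cells that express a gene and less of its RNA per cell cannot be told apart.

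**Figure D1:**
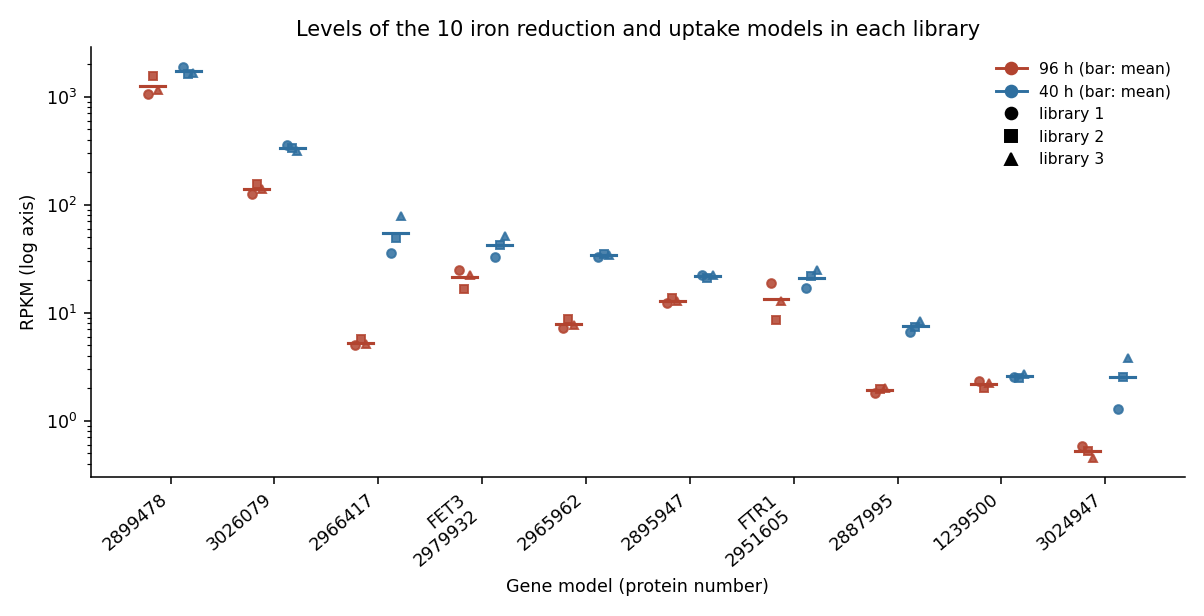
RPKM on a log axis of each gene model in the 3 libraries at 96 h (red, left) and at 40 h (blue, right), with horizontal bars at the means and models sorted by their 40 h mean. Model 2899478 lies between 1057 and 1889 RPKM in all libraries, and the 96 h and 40 h points overlap for FTR1 alone.

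The largest fall was that of the ferric reductase 2966417, so named by the authors' curation. It had 5.04, 5.70 and 5.13 RPKM in 96 h libraries 1, 2 and 3, against 35.8, 48.9 and 79.3 RPKM in the 40 h libraries. Every 96 h library was thus far below every 40 h library, while the 40 h libraries themselves differed widely. The mean was 10.3-fold lower at 96 h, and its log2 fold change was -3.07 (SE 0.25, adjusted p = 2.12e-05). Only 0.733% of tested models had a more negative log2 fold change. The spread at 40 h was one between libraries and not between lanes: the 40 h lanes of library 1 ran from 35.5 to 36.1 RPKM and those of library 3 from 78.5 to 80.4 RPKM.

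Models 2965962 and 2887995 followed by log2 fold change of RPKM + 1. By the ratio of means the low model 3024947 fell by more than either, 4.86-fold. Model 2965962, curated as ferric reductase-like, had 7.18, 8.78 and 7.64 RPKM at 96 h, against 33.1, 34.9 and 34.2 RPKM at 40 h. Its 40 h libraries were tight, its 96 h libraries less so, and the mean was 4.33-fold lower at 96 h (log2 fold change -1.99, SE 0.08, adjusted p = 7.10e-07). Model 2887995, which carries the domain and has no curated name, had 1.81, 1.97 and 2.02 RPKM at 96 h, against 6.67, 7.40 and 8.38 RPKM at 40 h. The times did not overlap, and its log2 fold change was -1.53 (SE 0.09, adjusted p = 4.45e-06). Since the level is near the pseudocount of 1 RPKM, this value moved to -1.90 with a pseudocount of 0.1 and to -0.85 with one of 5, and the call held with both.

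The most abundant member was 2899478, curated as an FRE-like iron reductase after the yeast FRE genes. It had 1057, 1541 and 1153 RPKM at 96 h, against 1889, 1638 and 1668 RPKM at 40 h. The highest 96 h library, library 2, came close to the lowest 40 h library without reaching it. The log2 fold change was -0.49 (SE 0.15, adjusted p = 0.0255). The call was lost on leaving out any one library other than 96 h library 2, with log2 fold changes from -0.52 to -0.37 and adjusted p from 0.0536 to 0.0911. It ranked 59 of 13602 models by mean RPKM at 96 h and 35 at 40 h, so it stayed among the most abundant transcripts of the fungus at both times.

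Model 3026079, curated as ferric reductase/NADPH oxidase, was second in level. It had 127, 156 and 139 RPKM at 96 h, against 355, 338 and 314 RPKM at 40 h. The mean was 2.38-fold lower at 96 h (log2 fold change -1.25, SE 0.10, adjusted p = 1.66e-05), and the times lay well apart. Its listed domain is the NAD-binding part of the enzyme, so the table does not settle whether it reduces iron or makes superoxide.

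These 2 models held nearly all of the summed RPKM of the 8 reductase members. The 8 reductase models summed to 1422 ± 272 RPKM at 96 h and 2190 ± 137 RPKM at 40 h (SD, n = 3 each). Model 2899478 made up 87.8% ± 1.11 of this sum at 96 h and 79.0% ± 1.32 at 40 h. Model 3026079 made up 10.0% ± 0.846 at 96 h and 15.3% ± 0.727 at 40 h. Without 2899478 the other 7 models summed to 172 ± 16.6 RPKM at 96 h and 459 ± 4.96 RPKM at 40 h. The share of 2899478 in the sum of these 8 members was thus larger at 96 h than at 40 h. By log2 fold change, model 2899478 had the smallest fall among the members that passed the test. In RPKM its fall was the largest of the members, from a mean of 1732 at 40 h to 1250 at 96 h. No test was made on these sums. They leave out 4 further models with a related domain or name, so the shares are not those of the whole family. Mean RPKM at 96 h against 40 h was 257 against 506 (2936841) and 258 against 47.2 (2919140). It was 87.2 against 62.0 for 2969667 and 82.3 against 65.8 for 2911139.

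The other reductase models were less abundant. Model 2895947, with no curated name, had 12.2, 13.8 and 12.9 RPKM at 96 h, against 22.4, 21.1 and 22.2 RPKM at 40 h. Its libraries were tight and did not overlap, and its log2 fold change was -0.71 (SE 0.07, adjusted p = 6.88e-05). Model 3024947, also unnamed, had 0.579, 0.525 and 0.456 RPKM at 96 h, against 1.28, 2.54 and 3.77 RPKM at 40 h. The times did not overlap, although the 40 h libraries covered a wide range and the lanes of 96 h library 1 alone ran from 0.381 to 0.712 RPKM. Its log2 fold change was -1.15 (SE 0.23, adjusted p = 0.00338) with a pseudocount of 1, -1.97 with one of 0.1 and -0.43 with one of 5, and its call held in each. All of these fits used the filter of 1 RPKM, which 3024947 passed through its 40 h libraries alone and which favours a lower call. With a filter of at least 5 RPKM it was not tested.

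Model 1239500 was the member that did not pass the test. It had 2.35, 1.99 and 2.25 RPKM at 96 h, against 2.54, 2.50 and 2.70 RPKM at 40 h. Each 96 h library was below each 40 h library by a narrow margin (log2 fold change -0.16, SE 0.08, adjusted p = 0.0995).

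**Figure D2:**
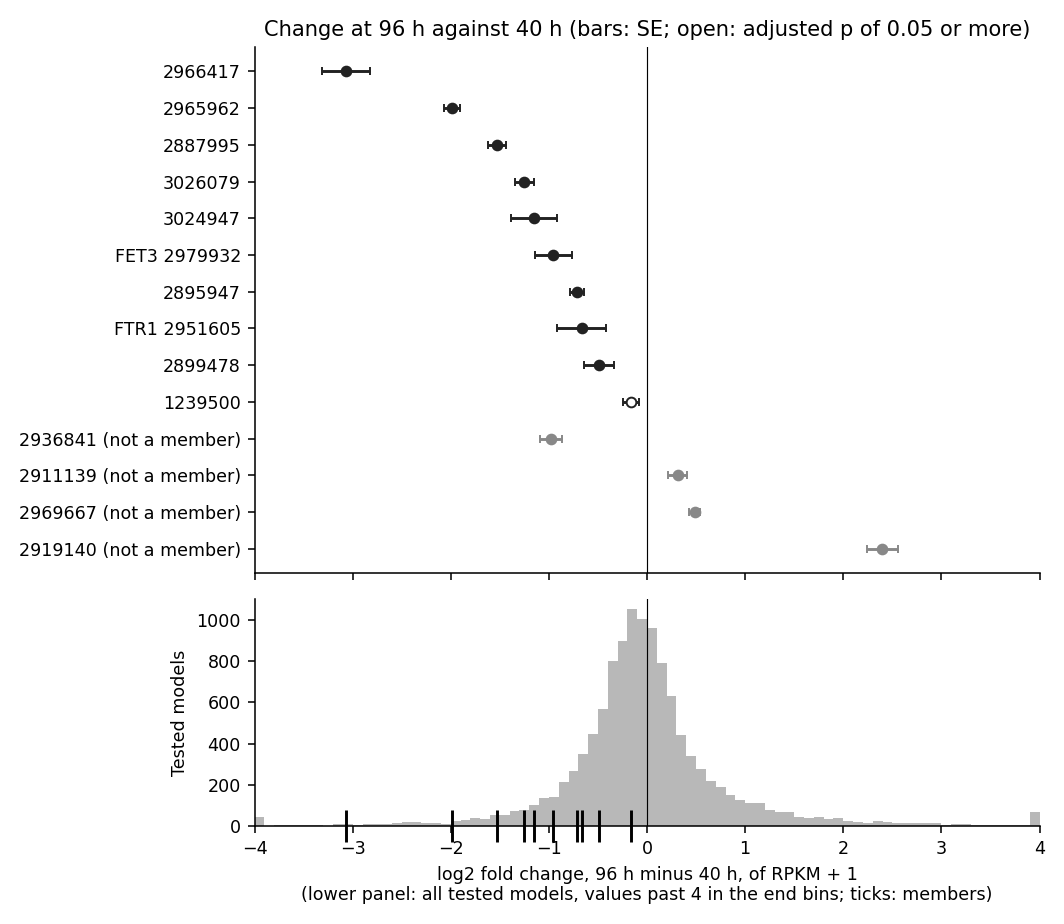
Upper panel: log2 fold change, 96 h minus 40 h, of RPKM + 1 with its SE for the 10 members (black) and for 4 further models with a related domain or name (grey), where the open circle did not pass the test. Lower panel: the same quantity for all 11725 tested models, with ticks at the members, which lie between -3.07 and -0.16.

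The 8 reductase models are not the whole family in the table. The membrane domain Ferric_reduct (PF01794) is listed for 9 models, of which 7 are members, and both others were higher at 96 h. Model 2969667 had 87.7, 88.4 and 85.4 RPKM at 96 h, against 63.7, 61.1 and 61.2 RPKM at 40 h (log2 fold change 0.48, SE 0.06, adjusted p = 0.000221). Model 2911139 had 83.5, 72.0 and 91.4 RPKM at 96 h, against 69.3, 65.6 and 62.4 RPKM at 40 h. Its log2 fold change of 0.31 (adjusted p = 0.0224) was smaller, and the call was lost with quantile normalization and without 40 h library 2, 40 h library 3 or 96 h library 3, with adjusted p up to 0.0848. The fall of the members is thus not a feature of every model with the domain.

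A further model, 2936841, has the FAD-binding part of such enzymes as its listed domain. It had 221, 296 and 255 RPKM at 96 h, against 525, 505 and 487 RPKM at 40 h (log2 fold change -0.98, SE 0.11, adjusted p = 0.000151), and it fell. Model 2919140, curated as cytochrome b561 ferric reductase-like, belongs to another class of membrane heme proteins, of which a mammalian member reduces iron in the gut. It had 307, 193 and 272 RPKM at 96 h, against 48.1, 49.6 and 43.9 RPKM at 40 h. It rose by 2.40 on the log2 scale (SE 0.16, adjusted p = 7.70e-06), and at 96 h its mean of 258 RPKM exceeded that of every member but 2899478.

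The ferroxidase FET3 (2979932) had 24.8, 16.6 and 22.3 RPKM at 96 h, against 33.0, 42.0 and 51.6 RPKM at 40 h. The times did not overlap, and both showed clear differences between libraries. The mean was 1.99-fold lower at 96 h (log2 fold change -0.95, SE 0.19, adjusted p = 0.00273), and its adjusted p lay between 0.00178 and 0.0136 over all alternatives.

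The iron permease FTR1 (2951605) had 18.7, 8.61 and 13.0 RPKM at 96 h, against 16.9, 22.0 and 24.7 RPKM at 40 h. The times overlapped, because 96 h library 1 lay above 40 h library 1. Its log2 fold change was -0.67 (SE 0.25, adjusted p = 0.0479), the weakest of the calls. Without 96 h library 2, the one least like the rest, the log2 fold change was -0.40 and the adjusted p was 0.0764. Leaving out 40 h library 2, 40 h library 3 or 96 h library 3 ended the call too, and the highest adjusted p over all alternatives was 0.136.

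FET3 exceeded FTR1 in every library. The ratio of FET3 to FTR1 was 1.33, 1.93 and 1.72 in the 96 h libraries, against 1.95, 1.91 and 2.09 in the 40 h libraries. The ratio was more variable at 96 h and nearly constant at 40 h, although both levels varied by library at 40 h too. The pair had its libraries in the same order of level: 1, 3 and 2 from high to low at 96 h, an order that 21.0% of tested models had, and 3, 2 and 1 at 40 h, an order of 22.2%. Member 1239500 shared the 96 h order, and members 2966417, 2887995 and 3024947 shared the 40 h order. FTR1 and FET3 are the only models in the table listed with their domains, FTR1 (PF03239) and Cu-oxidase_2 (PF07731). The 4 other multicopper oxidases are listed with Cu-oxidase_3 (PF07732), so FET3 is not the only multicopper oxidase in the table.

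The spread between libraries of a time was itself uneven among the members. The coefficient of variation between libraries was 6.69% at 96 h and 40.8% at 40 h for 2966417, and 11.8% at 96 h and 49.3% at 40 h for 3024947. It was 19.8% at 96 h and 22.1% at 40 h for FET3, and 37.7% at 96 h and 18.7% at 40 h for FTR1. Model 2965962 had 10.5% at 96 h and 2.69% at 40 h, and its 40 h value was the lowest among the members at 40 h. The wide 40 h spread of 2966417 was unusual, since its 40 h SD on the log2 scale exceeded that of 99.8% of tested models; for FET3 this share was 98.0%. The members with the widest 40 h spread, 3024947, 2966417, FET3 and FTR1, and also 2887995 were each highest in 40 h library 3 and lowest in library 1. Among all tested models 22.2% had this order. The other members did not have it, and 3026079, 2895947 and 2899478 were highest in 40 h library 1. Between the lanes of a library the coefficient of variation of FTR1 was 7.81% or less, so its libraries differed by more than their lanes did. The labels do not say how the pools of sections within a time differed.

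**Figure D3:**
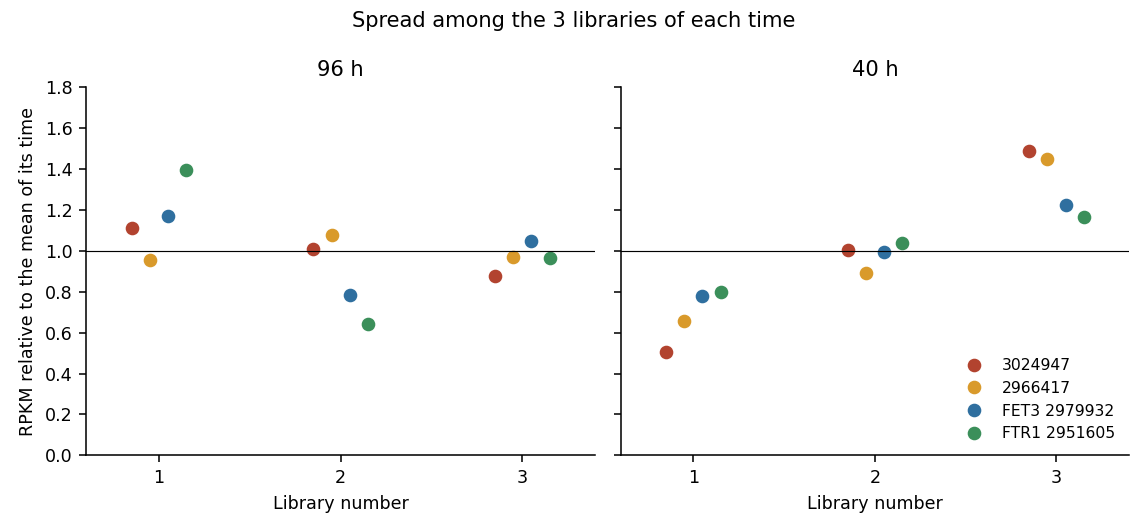
RPKM of 4 members, picked for the widest coefficient of variation at 40 h, in each library at 96 h (left) and at 40 h (right). Values are divided by the mean of the same model over the 3 libraries of its time, and the line at 1 is that mean. At 40 h all 4 are lowest in library 1 and highest in library 3, and at 96 h FET3 and FTR1 are lowest in library 2.

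By level at 96 h the members ranked 2899478 (1250.1 RPKM), 3026079 (141), FET3 (21.2), FTR1 (13.4), 2895947 (13.0), 2965962 (7.87), 2966417 (5.29), 1239500 (2.20), 2887995 (1.93) and 3024947 (0.520). Neighbours with overlapping libraries were FET3 and FTR1, FTR1 and 2895947, and 1239500 and 2887995. At 40 h the order of mean RPKM was 2899478 (1732), 3026079 (336), 2966417 (54.7), FET3 (42.2), 2965962 (34.1), 2895947 (21.9), FTR1 (21.2), 2887995 (7.48), 1239500 (2.58) and 3024947 (2.53). There 2966417 overlapped with FET3, FET3 with 2965962, 2895947 with FTR1, and 1239500 with 3024947. Model 2966417 thus stood below FET3 at 96 h and above it at 40 h, though the libraries overlapped at 40 h. Models 2899478, 3026079 and 3024947 kept their places at both times.

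Of the sequence features listed in the table, the Ferric_reduct domain was shared by 7 members and a signal peptide value by 2. A signal peptide probability is listed for 1274 of the 13602 models, and among the members for 2966417 and FET3, both at 1. The Ferric_reduct domain lies far from the start of 2966417, at residues 303 to 424, and nearer to it in the others, where it starts between residue 109 (2887995) and residue 216 (1239500). Of the 8 reductases 4 have a curated name, and these include the most abundant ones, 2899478 and 3026079. The table lists a single domain for each member, so partners such as the FAD-binding part are not seen for most of them.

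Other models of iron and copper handling, taken by their annotation, changed in both directions: models that rose and models that fell were found among the multicopper oxidases, metal transporters, heme, iron-sulfur and copper models. Among all tested models 26.3% were higher and 35.6% lower by the same rule, and no list was tested as a set. Of the 4 other multicopper oxidases 2 rose and 1 fell. In this species mco1 encodes a secreted enzyme with ferroxidase activity, and mco2, mco3 and mco4 are its close relatives. The model mco2 (2983773) had 18.3, 15.1 and 15.6 RPKM at 96 h, against 3.89, 3.89 and 3.98 RPKM at 40 h (log2 fold change 1.81, adjusted p = 1.38e-06), a clear separation. The model mco3 (132237) rose as well, with a log2 fold change of 1.15, and mco4 (3028517) fell by 0.42 on the log2 scale. The model mco1 (3005133) had 3.06 ± 0.470 RPKM at 96 h and 2.85 ± 0.0846 RPKM at 40 h (SD, n = 3 each), and did not pass the test (adjusted p = 0.551).

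Among 9 models of iron and metal ion transport other than FTR1, 8 were tested, 3 rose and 1 fell (median log2 fold change 0.10). Of all tested models 26.3% were higher and 35.6% lower. The NRAMP family holds proton-coupled carriers of divalent metals. Its model 2985681 had 45.6, 50.0 and 48.6 RPKM at 96 h, against 4.59, 4.77 and 4.85 RPKM at 40 h. That is a 10.1-fold higher mean at 96 h, and a rise of 3.10 on the log2 scale (SE 0.07, adjusted p = 4.50e-08). The other NRAMP model, 3032168, moved the other way, with 5.05 ± 0.202 RPKM at 96 h and 11.1 ± 0.898 RPKM at 40 h (SD, n = 3 each; log2 fold change -0.99, adjusted p = 2.07e-05). Of the ZIP models, carriers of zinc or iron into the cytosol, 3002580 and 2957374 rose, with log2 fold changes of 1.19 and 0.25.

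**Figure D4:**
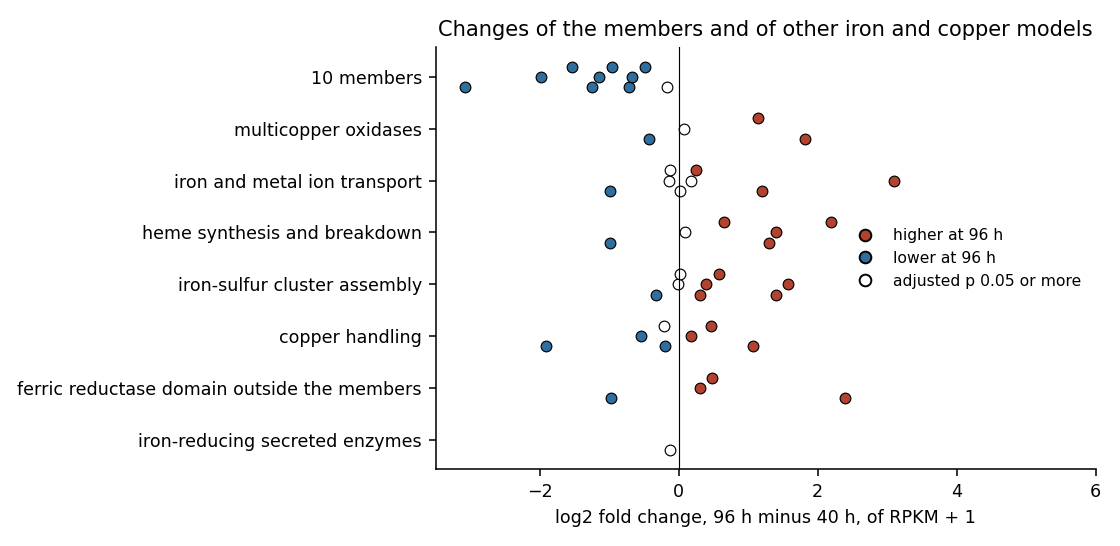
Log2 fold change, 96 h minus 40 h, of RPKM + 1 for each tested model of the members and of the other iron and copper lists, one point per model, coloured by the result of limma's test. The members lie at or below -0.16, and the other lists hold values on both sides of 0, up to 3.10 for the NRAMP model 2985681.

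Heme synthesis, in which iron is inserted into protoporphyrin, rose for 4 of 6 models and fell for 1 (median log2 fold change 0.98). Over all tested models 26.3% were higher and 35.6% lower. Uroporphyrinogen decarboxylase (2899377) had 261, 242 and 256 RPKM at 96 h, against 52.4, 58.9 and 53.3 RPKM at 40 h (log2 fold change 2.19, adjusted p = 2.58e-07). Ferrochelatase (3026789), the enzyme that inserts the iron, had 111, 101 and 109 RPKM at 96 h, against 43.3, 44.5 and 41.2 RPKM at 40 h (log2 fold change 1.29, adjusted p = 2.35e-06). Both were thus well separated between the times. Porphobilinogen synthase (2971738) rose by 1.41 on the log2 scale, and uroporphyrinogen III synthase (2983884) by 0.66. Of the models with a coproporphyrinogen oxidase domain, 3025787 fell by 0.98 on the log2 scale and 2917948 did not pass the test (log2 fold change 0.09, adjusted p = 0.255).

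Iron-sulfur cluster assembly and glutaredoxin models rose for 5 of 8 and fell for 1 (median log2 fold change 0.35). The same calls were made for 26.3% and 35.6% of all tested models. The list's name covers it loosely, since 5 of its models are glutaredoxins, small thiol oxidoreductases of which only some bind clusters. Of these 3026613, 2901768, 2981699 and 3006456 had log2 fold changes of 1.58, 1.40, 0.58 and 0.30, all past the threshold. The call of 3006456 was lost without 40 h library 1 or 3, with adjusted p up to 0.0759. Glutaredoxin 2977869 had a log2 fold change of -0.01 (adjusted p = 0.955). Frataxin (3029606), an iron-binding protein of cluster assembly, rose by 0.39 on the log2 scale. Of the scaffold models, 2915938 fell by 0.32 on the log2 scale and 2923753 did not pass the test (log2 fold change 0.01, adjusted p = 0.892).

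Copper handling, on which multicopper oxidases depend, went both ways. Of 7 models 3 were higher and 3 lower, against 26.3% and 35.6% of all tested models. The median log2 fold change of the list was -0.19. One call in each direction was not stable: that of transporter 2905773 (higher) was lost in 12 of 19 alternatives and that of COX17 (lower) in 11. The copper transporter 2907691 had 1.10, 0.639 and 1.08 RPKM at 96 h, against 5.79, 6.11 and 6.90 RPKM at 40 h (log2 fold change -1.91, adjusted p = 4.85e-06), the largest fall of the list. Transporter 3030704 fell by 0.54 on the log2 scale, while transporters 2912224 and 2905773 were higher by 0.47 and 0.18, the smaller change with an adjusted p of 0.0460. The heavy metal domain model 2973787 rose by 1.07, and the mitochondrial copper chaperones COX17 (2894873) and SCO1 (2966262) had log2 fold changes of -0.19 (adjusted p = 0.0480) and -0.22 (adjusted p = 0.0736). Cellobiose dehydrogenase, which can reduce ferric iron outside the cell and is curated as CDH (3030424), had 1359 ± 56.8 RPKM at 96 h and 1476 ± 91.1 RPKM at 40 h (SD, n = 3 each; adjusted p = 0.317). No model matched the siderophore terms searched.

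Profiles most like those of FET3 and FTR1 were sought among 6290 annotated models by the root mean square difference of mean-centred log2(RPKM + 1) values over the 6 libraries. For FET3 the nearest were a cytochrome P450 (3034633), a possible isoflavone reductase (3021649) and a short-chain dehydrogenase (2989264), at 0.12, 0.14 and 0.15, and FTR1 was the 34th nearest at 0.21. For FTR1 the nearest were a COX5A subunit of cytochrome c oxidase (2989470), a Complex1_LYR protein (3035371) and a thaumatin family protein (2909571), at 0.17, 0.18 and 0.18, and FET3 was the 8th nearest. With 2 times and 3 libraries each this is a description.

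In the authors' deposited table all 10 members have a ratio of 96 h over 40 h below 1 and a p-value below 0.05, as do 43.9% of its 13602 models. That table gives ratios of 0.102 for 2966417, 0.504 for FET3, 0.610 for FTR1 and 0.851 for 1239500. Its p-values for FTR1 and 1239500 are 1.15e-05 and 0.00427, far smaller than limma's over libraries (unadjusted p = 0.0295 and 0.0684). The deposited t statistics were 1.06 times, as a median over 12963 models, those obtained with lanes taken as replicates, and 3.03 times those obtained with libraries taken as replicates.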

How the data were processed

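The members, lists and alternatives were chosen with earlier results of these data known. RNA was sequenced from 6 pools of wood sections, and CASAVA 1.8.2 was used, per the submitters' processing notes; aligner, counter, build and treatment of shared reads: not given in the sources used here. RPKM was made by the authors, 1 column for each library and lane. The deposited means match geometric means of the run columns in 97.7% of models, and the deposited ratio, p-value and signal peptide fraction were read from the authors' table. The barcode number in the titles was taken as the library. Its 3 lanes were averaged on the linear scale, and log2(RPKM + 1) of the 11725 models that reached 1 RPKM in 3 or more libraries (1877 others were not tested) was fitted with limma 3.58.1 in R 4.3.3 with a variance trend and Benjamini-Hochberg adjustment over all tested models. The fit was tested on simulated data. No source states separate cultures, so the p-values speak only to the spread among these 6 pools. Every member was named. So was every model of lists of at most 8; from the longer list of metal transporters, the 3 largest calls in each direction; and the 3 profiles nearest FET3 and FTR1. Alternatives concerned pseudocount, filter, scaling, variance trend, lanes, each library left out and a replicate block.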

Additional observations from a re-analysis of the deposited data

How the results depend on the processing

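No member changed direction under any of the alternatives that tested it, and the number of members called lower lay between 7 and 9 over 19 alternatives. The calls of 2899478 and FTR1 were the ones lost. For FTR1 this also happened with no filter (adjusted p = 0.0602), median-centred libraries (0.0885), quantile normalization (0.0815), lane 1 alone (0.0592) and lane 3 alone (0.0700). With a filter of at least 5 RPKM, 3024947 and 1239500 were not tested. Over all models between 3492 and 4792 were called lower and between 2607 and 3550 higher. The labels state no pairing of the samples. Deviations of libraries with the same barcode number correlated at 0.136, 0.133 and -0.102. For the pool numbers in the column names these values were 0.218, -0.0971 and 0.0757. With 3 libraries per time such values cannot settle whether samples were paired. With the barcode numbers as a replicate block 4108 models were lower, 3013 higher and 7 members lower. The calls of 2899478 (adjusted p = 0.0511) and FTR1 (0.0706) were lost. With a replicate block by the pool numbers in the column names, added after seeing the data, 4056 models were lower, 2968 higher and 9 members lower. Of the other named models, 3 with changes near 0 changed sign: 2977869 had log2 fold changes of 0.0378 with median-centred libraries, 0.0300 with quantile normalization and 0.0779 with lane 2 alone, 2923753 had -0.0116 with lane 1 alone, and 3005133 had -0.0145 with lane 2 alone. With a library left out they ran from -0.159 to 0.0973 (2977869), from -0.0340 to 0.0614 (2923753) and from -0.00601 to 0.162 (3005133). None of the 3 passed the test in any of these. A pseudocount of 5 shrank the log2 fold changes of the low models mco3 (132237), mco4 (3028517), 2907691 and 3002580 to 0.67, -0.20, -0.92 and 0.74, all still called. The calls of COX17 (2894873) and of the copper transporter 2905773 were lost in 11 and 12 of 19 alternatives, with adjusted p up to 0.271 and 0.148; the cause was not tested. The call of mco4 was lost with lane 3 alone (adjusted p = 0.0745), and SCO1 (2966262) passed with lane 2 alone (0.0289). Depth is unknown, so counting error of the low models cannot be given.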
